A study of Rattus norvegicus with 24 samples.

Results

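The miR-200 family was followed in the lungs of Fischer-344 rats through 5 miRNAs, rno-miR-141-3p, rno-miR-200a-3p, rno-miR-200b-3p, rno-miR-200c-3p and rno-miR-429. They were chosen by name from the 719 rat miRNAs of an Agilent single-colour (Cy3) array. The rule was written with earlier results of these data known. All 5 were among the 283 miRNAs bright enough to be tested. Lung RNA of 24 rats was measured, with 1 array per rat. The rats were 7 to 8 weeks old, and each of 4 groups held 3 males and 3 females. The control group breathed filtered clean air, and the other groups inhaled hexanal, a volatile aldehyde, at 600, 1000 or 1500 ppm for 4 h per day on 5 days per week over 5 weeks. The labels also give these dose numbers in milligrams per cubic metre, so the ppm value serves only as a name of the group. RNA came from lung tissue, which holds many cell types, and fewer cells of a type and less RNA per cell cannot be told apart.

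MicroRNAs are short RNAs that lower the output of mRNAs to which they pair, mainly through their seed (bases 2 to 8). The miR-200 family is abundant in epithelia, among them the linings of the airways and alveoli, and is best known for repressing the transcription factors ZEB1 and ZEB2, which silence E-cadherin and other genes of the epithelial state. ZEB1 and ZEB2 repress the miR-200 genes in turn, and a loss of the family is a known mark of epithelial-to-mesenchymal transition.

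The mature sequences listed by RefSeq for members of the 2 seed classes are shown first, because the seed decides which mRNAs a member can pair with. Both lie on the minus strand of the rat assembly GRCr8, rno-miR-141-3p at chr4:159209540-159209561 and rno-miR-200c-3p at chr4:159209969-159209989. Capitals mark the seed.
rno-miR-141-3p: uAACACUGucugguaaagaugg
rno-miR-200c-3p: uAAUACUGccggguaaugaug
Counted from 1 at the 5′ end, the seeds differed by the single substitution C4U, and the mature sequences were identical at 17 of 21 aligned bases.

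The hairpins from which the 5 members are cut are shown next, because the family lies in 2 clusters. In each hairpin, the letters of one of the seeds, AACACUG or AAUACUG, were found once on the printed strand and are in capitals.
Mir141: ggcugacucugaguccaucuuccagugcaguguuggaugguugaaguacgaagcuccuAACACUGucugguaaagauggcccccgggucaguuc
Mir200c: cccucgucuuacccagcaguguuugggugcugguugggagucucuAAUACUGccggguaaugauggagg
Mir200a: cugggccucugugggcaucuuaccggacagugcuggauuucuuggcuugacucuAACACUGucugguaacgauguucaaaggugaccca
Mir200b: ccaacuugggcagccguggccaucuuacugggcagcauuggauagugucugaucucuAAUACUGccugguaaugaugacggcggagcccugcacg
Mir429: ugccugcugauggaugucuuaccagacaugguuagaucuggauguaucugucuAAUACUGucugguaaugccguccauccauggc
Mir141 (chr4:159209525-159209618) and Mir200c (chr4:159209965-159210033) were 346 bases apart on the minus strand, between the protein-coding genes Phb2 and Ptpn6. Mir429 (chr5:171929682-171929766), Mir200a (chr5:171930717-171930805) and Mir200b (chr5:171931495-171931589) spanned 1908 bases of the minus strand, in a stretch that overlaps the protein-coding gene Ttll10 and a long non-coding RNA gene. Mir141 and Mir200a held the letters AACACUG, and Mir200b, Mir200c and Mir429 held AAUACUG. Each heptamer was found in 4 of the 419 rat hairpins of the table (0.955%). The seed classes and the clusters therefore cut across each other, and each cluster carried both seeds.

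Each array had 221 to 306 miRNAs above background and no saturated spot, and the 75th percentile of its probe intensities before scaling lay between 661.7 and 1226. The 24 arrays sat on 3 slides of 8, each scanned once. Slide 1 held males only (3 control, 3 at 600 ppm and 2 at 1000 ppm). On slide 2 were the 3 control females and the 3 males at 1500 ppm, with a male of the 1000 ppm group (male 13) and a female of the 600 ppm group (female 26). Slide 3 held females only (2 at 600 ppm, 3 at 1000 ppm and 3 at 1500 ppm). Males at 1500 ppm were therefore never on a slide with control males, and at no dose did a male share a slide with a female. Within a sex, only male 13 and female 26 link the slides, each against the rats of its group on another slide. Dose differences within a sex that cross slides, and interactions, rest on these single rats once slide is in the fit. All 10 miRNAs of a list of other epithelial miRNAs were above background on all 24 arrays, as were all of the endothelial list (4 miRNAs) and of the smooth muscle and fibroblast list (5 miRNAs).

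All 5 members were above background on all 24 arrays, each through 2 probes of 10 spots. Levels are given as log2 of the scaled intensity, on which a difference of 1 is a doubling, and were compared only within a miRNA. As means of 2 probes, the members varied little between rats. In miR-141-3p, miR-200a-3p and miR-200b-3p these probes shifted in opposite directions from slide 1 to slide 2, which their mean hides (values below). The highest and the lowest rat differed by 0.28 for miR-200b-3p, 0.30 for miR-141-3p, 0.37 for miR-200a-3p and miR-200c-3p and 0.47 for miR-429 on the log2 scale, the last of these being 1.38-fold. The median of this range over the 211 miRNAs above background on all arrays was 0.66. Within a group of one dose and sex the SD of the members was 0.057 to 0.075, against a median of 0.131, and miR-200a-3p had the third smallest SD of the 211 miRNAs.

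**Figure D1:**
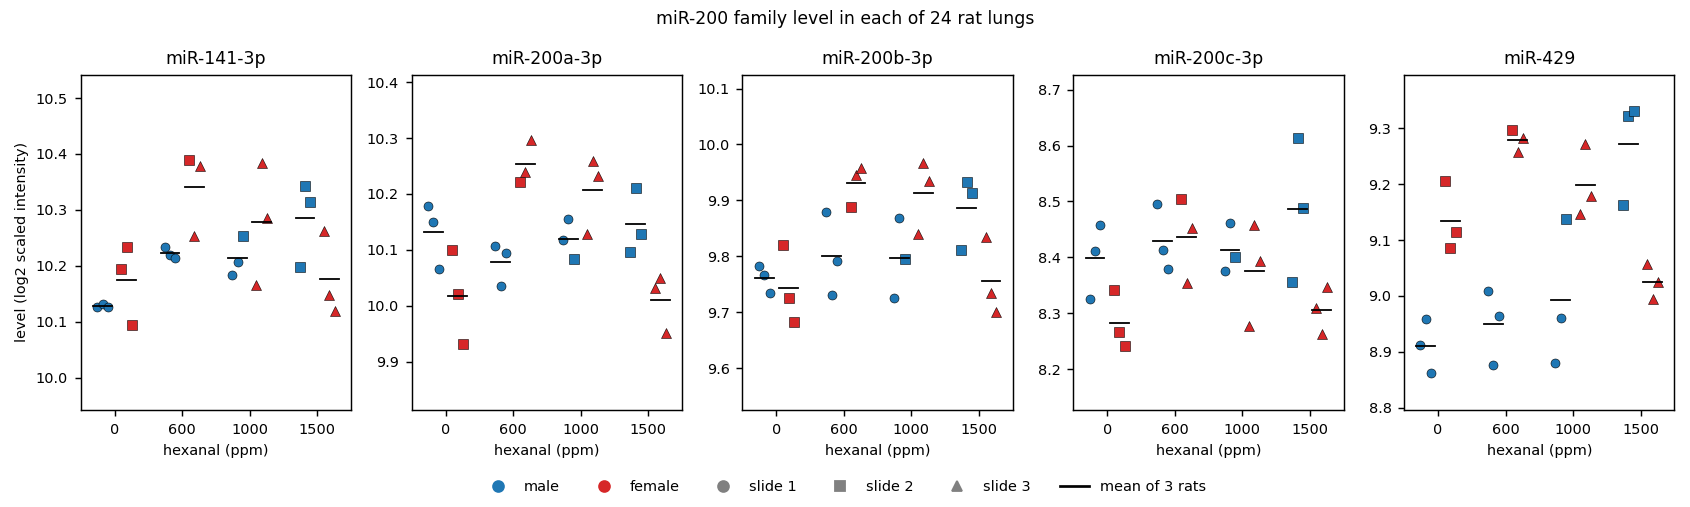
Level of each member in each rat (vertical axis, log2 of the scaled intensity, all panels spanning 0.6) against the hexanal dose (ppm), with colour for sex, symbol for slide and a line at the mean of the 3 rats of a sex. The 3 females at 600 ppm lie above the 3 control females in every panel, and the males at 1500 ppm stand on another slide than the control males.

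The first question of the design was whether the family differed between exposed and control lungs. With the sexes together, all 5 members had a higher mean at each of the 3 doses than in control, by 0.004 to 0.13 on the log2 scale. Of all miRNAs tested, 63.25%, 43.82% and 50.88% were higher than control at 600, 1000 and 1500 ppm. None of the 15 differences of the members passed the adjusted threshold. For miR-141-3p, the control rats lay at 10.09, 10.13 and 10.23 (lowest, median and highest of 6), the rats at 600 ppm at 10.21, 10.24 and 10.39, those at 1000 ppm at 10.17, 10.23 and 10.38 and those at 1500 ppm at 10.12, 10.23 and 10.34. For miR-200c-3p, the other member of its cluster, the same values were 8.24, 8.33 and 8.46 in control, 8.36, 8.43 and 8.50 at 600 ppm, 8.28, 8.40 and 8.46 at 1000 ppm and 8.26, 8.35 and 8.61 at 1500 ppm. The 4 dose groups overlapped in both miRNAs, with the control median lowest.

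In the cluster of chromosome 5, miR-200a-3p lay at 9.93, 10.08 and 10.18 in control, 10.04, 10.17 and 10.30 at 600 ppm, 10.08, 10.14 and 10.26 at 1000 ppm and 9.95, 10.07 and 10.21 at 1500 ppm. Its neighbour miR-200b-3p lay at 9.68, 9.75 and 9.82 in control, 9.73, 9.88 and 9.96 at 600 ppm, 9.73, 9.85 and 9.97 at 1000 ppm and 9.70, 9.82 and 9.93 at 1500 ppm. For miR-429, which shares the seed letters of miR-200b-3p, the values were 8.86, 9.02 and 9.21 in control, 8.88, 9.13 and 9.30 at 600 ppm, 8.88, 9.14 and 9.27 at 1000 ppm and 8.995, 9.11 and 9.33 at 1500 ppm. Here too the groups overlapped, and in every member neighbouring dose groups in the order of medians overlapped in range.

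At 600 ppm the difference from control was 0.13 ± 0.05 (SE) for miR-141-3p, 0.11 ± 0.05 for miR-200b-3p and 0.09 for each of the other 3 members, with an SE of 0.06 for miR-200a-3p and miR-200c-3p and of 0.09 for miR-429. These are 1.07-fold to 1.09-fold differences. The limma test with Benjamini-Hochberg adjustment over the 283 miRNAs called 0 of the 5 at 600 ppm (adjusted p = 0.996 for each), as it called 0% of all miRNAs tested. Before adjustment, miR-141-3p and miR-200b-3p were under 0.05 in this limma fit, 2 of 5 members against 1.77% of all miRNAs. With slide in the fit, the differences at 600 ppm were 0.15 ± 0.04 for miR-141-3p, 0.12 ± 0.05 for miR-200c-3p and for miR-429, 0.11 ± 0.05 for miR-200b-3p and 0.08 ± 0.06 for miR-200a-3p. In that fit 4 of 5 members, all but miR-200a-3p, were under 0.05 before adjustment, against 8.13% of all miRNAs, and none after it, with a lowest adjusted p of 0.285.

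At 1000 ppm the 5 differences lay between 0.05 (miR-200c-3p) and 0.10 (miR-200b-3p), and at 1500 ppm between 0.00 (miR-200a-3p) and 0.13 (miR-429). None was under 0.05 before adjustment and none passed after it, as 0% of all miRNAs did at 1000 ppm, at 1500 ppm, in the F test of any dose and in the linear trend with dose. The 95% confidence intervals of the 15 differences reached from -0.113 to 0.311 on the log2 scale, or from 0.925-fold to 1.24-fold. The median difference of the 5 members was 0.093, 0.089 and 0.069 at 600, 1000 and 1500 ppm, beside 0.024, -0.015 and 0.002 for all miRNAs tested. All 3 comparisons share the control rats. The positive sign at 600 and 1000 ppm held in all 5 members in each of 14 other settings of scaling, summary and fit, although with normexp background correction, which raised the median of all miRNAs at 600 ppm to 0.315, every member lay below that median. At 1500 ppm all 5 members stayed above 0 in 9 of 14 settings, and none did in the authors' unscaled series table, where the median of all miRNAs was -0.269.

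**Figure D2:**
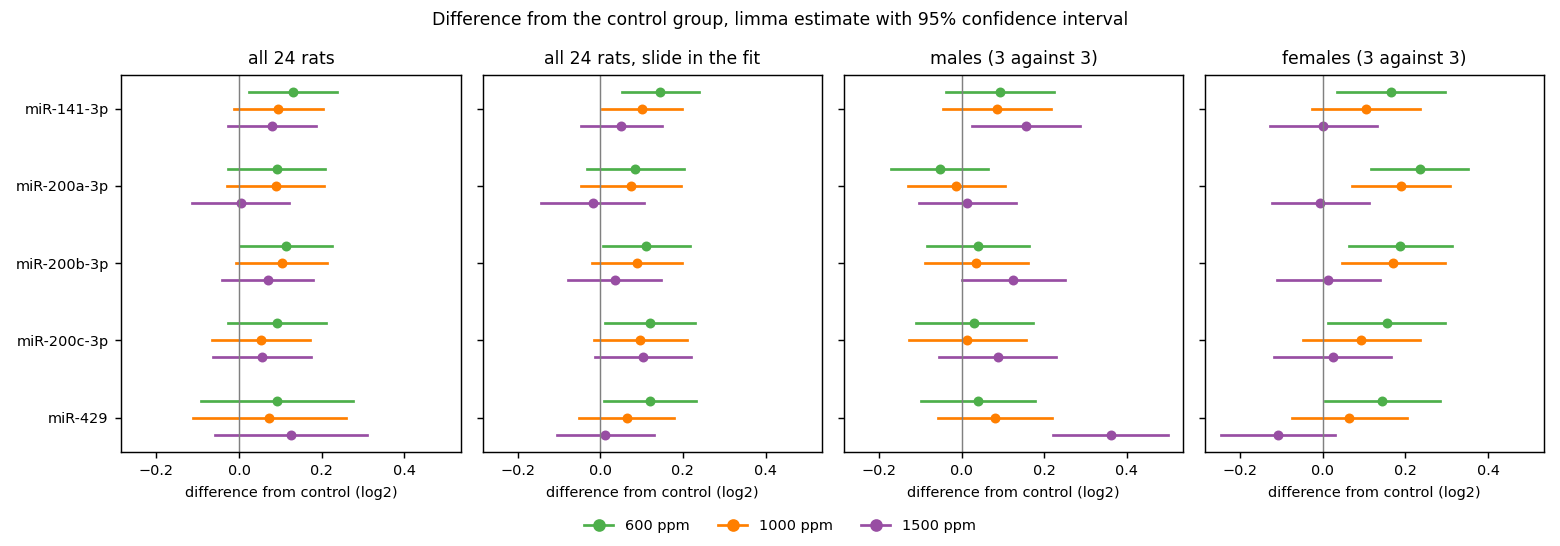
Difference of each dose group from control for each member (horizontal axis, log2, with 95% confidence intervals from limma), from left to right in all rats, in all rats with slide in the fit, in males and in females. In the first panel the 3 estimates of each member lie above 0. With slide in the fit miR-200a-3p lies below 0 at 1500 ppm (-0.018). In females the estimates are largest at 600 ppm for all 5 members.

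The labels also ask for the doses within each sex, with 3 rats a group. In females, all 5 members were higher at 600 ppm than in control, as were 60.07% of all miRNAs. The 3 exposed females lay above the 3 control females in every member. In miR-200a-3p the control females were at 9.93, 10.02 and 10.10 and the females at 600 ppm at 10.22, 10.24 and 10.30, a difference of 0.24 ± 0.06 or 1.18-fold. In miR-200b-3p they were at 9.68, 9.73 and 9.82 against 9.89, 9.95 and 9.96, a difference of 0.19 ± 0.06. Both come from the same cluster.

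In miR-141-3p the control females were at 10.09, 10.20 and 10.23 and those at 600 ppm at 10.25, 10.38 and 10.39, a difference of 0.17 ± 0.06. In miR-200c-3p they were at 8.24, 8.27 and 8.34 against 8.36, 8.45 and 8.50, a difference of 0.15 ± 0.07. In miR-429 they were at 9.09, 9.11 and 9.21 against 9.26, 9.28 and 9.30, a difference of 0.14 ± 0.07. Such a separation, with every exposed female above every control female, was seen in 5 of 5 members and in 12.0% of all miRNAs tested. All 5 members had a p under 0.05 before adjustment in this limma contrast, against 10.2% of all miRNAs, and none passed after adjustment (adjusted p = 0.146 for miR-200a-3p and 0.424 for each of the other 4).

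The control females were on slide 2, and 2 of the 3 females at 600 ppm were on slide 3. The remaining one, female 26, shared slide 2 with the control females, and it lay above all 3 of them in each of the 5 members, by 0.15 (miR-200b-3p) to 0.22 (miR-200c-3p) over their mean, as it did in 27.9% of all miRNAs. It also did so in each of the 10 probes of the members. The sign at 600 ppm in females was positive in all 5 members in each of 12 other settings and on leaving out each rat in turn, with 1 to 5 members under 0.05 before adjustment. The normexp correction again moved all miRNAs up, to a median of 0.61, and every member then lay below that median.

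At 1000 ppm the females were also higher than control in all 5 members, and in 52.65% of all miRNAs. Before adjustment miR-200a-3p (0.19 ± 0.06) and miR-200b-3p (0.17 ± 0.06) were under 0.05, 2 of 5 against 18.0% of all miRNAs, and none after it. All 3 of these females were on slide 3 and the control females on slide 2. With slide in the fit the differences were 0.14 ± 0.10 for miR-200a-3p and 0.11 ± 0.11 for miR-200b-3p, and 0 of 5 members were under 0.05 before adjustment, against 3.18% of all miRNAs. At 1500 ppm the difference in females lay between -0.109 (miR-429) and 0.024 (miR-200c-3p), and none was under 0.05 before adjustment.

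Females of 3 doses were on slide 3, and the doses could be set against each other there without a slide difference, in comparisons added after the data had been seen. All 5 members were lower at 1500 ppm than at 600 ppm, by 0.26 ± 0.06 for miR-200a-3p, 0.24 ± 0.05 for miR-429, 0.19 ± 0.06 for miR-200b-3p, 0.14 ± 0.07 for miR-141-3p and 0.10 ± 0.06 for miR-200c-3p. The median difference of the members was -0.195, beside -0.071 for all miRNAs. In 4 of 5 members, all but miR-141-3p, both females at 600 ppm lay above all 3 at 1500 ppm, as in 29.0% of all miRNAs.

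The 3 members of the chromosome 5 cluster, miR-200a-3p, miR-200b-3p and miR-429, were under 0.05 before adjustment in this contrast (3 of 5, against 13.8% of all miRNAs). The same 3 were under 0.05 between 1500 and 1000 ppm (against 6.71%). There the median difference of the 5 members was -0.157, beside -0.049 for all miRNAs. None passed after adjustment in limma, with a lowest adjusted p of 0.239 against 600 ppm and of 0.637 against 1000 ppm. Between 1000 and 600 ppm all 5 members were lower by 0.03 to 0.07, and none was under 0.05 before adjustment. The median of all miRNAs was -0.023 there, with 39.22% of them above 0.

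The summed levels of other cell markers also differed between these females, and none of their miRNAs passed in females at any dose. The summed scaled intensity of the 4 leukocyte miRNAs tested was 4046 to 4999 in control, 3408 to 4026 at 600 ppm, 4125 to 4669 at 1000 ppm and 4154 to 4728 at 1500 ppm. The sum of the smooth muscle and fibroblast list was 8509 to 9348, 9479 to 10270, 9492 to 11150 and 8708 to 9988 in the same order. The leukocyte sum was thus lowest at 600 ppm, where the miR-200 members were highest. The smooth muscle and fibroblast sum lay above all control females at 600 ppm and at 1000 ppm alike. The erythroid sum (3 miRNAs tested) was 1088 to 1385, 1548 to 2319, 1891 to 2679 and 1416 to 2429, above control at all doses. Over the 8 rats of a slide it was 1057 to 1879 on slide 2 and 1416 to 2679 on slide 3. The striated muscle sum (4 tested) was 175.3 to 213.6, 191 to 571.8, 213.4 to 1373 and 174 to 1205. The endothelial sum was 12780 to 15150 in control and 13600 to 15100 at 600 ppm, and that of the other epithelial miRNAs 2139 to 3394 and 2796 to 3520, both overlapping. The part of these cell types in the result was not tested.

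In males the members at 600 and 1000 ppm differed from control by -0.05 to 0.09, and none was under 0.05 before adjustment. All 3 control males and all 3 males at 600 ppm were on slide 1, where the median difference of the members was 0.039 beside 0.010 for all miRNAs. At 1500 ppm miR-429 rose, although it was lower than in control, by -0.328, in the unscaled series table, where the median of all miRNAs was -0.656. The control males were at 8.86, 8.91 and 8.96, the males at 600 ppm at 8.88, 8.97 and 9.01, those at 1000 ppm at 8.88, 8.96 and 9.14 and those at 1500 ppm at 9.16, 9.32 and 9.33. The difference at 1500 ppm was 0.36 ± 0.07 or 1.28-fold (limma adjusted p = 6.0e-04), and the other 4 members, with differences of 0.01 to 0.16, did not pass. Thus 1 of 5 members passed, against 36.0% of all miRNAs, and in 3 of 5 every male at 1500 ppm lay above every control male, against 31.1%.

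This rise coincided with a slide. The male at 1000 ppm with the value of 9.14 was the only one of that group on slide 2, where the males at 1500 ppm also lay, and the other 2 males at 1000 ppm on slide 1 were at 8.88 and 8.96. With slide in the fit the difference of miR-429 in males at 1500 ppm was 0.14 ± 0.10 (limma adjusted p = 1.00). Against the control females of the same slide, a comparison of both dose and sex, the males at 1500 ppm were higher by 0.14 ± 0.06 in miR-429 and by 0.11 to 0.20 in the other members, and none passed after adjustment. For miR-429 in males the dose and the slide cannot be told apart.

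Whether the dose differences differed between the sexes was tested as an interaction. It passed for miR-429 (F = 14.9, limma adjusted p = 0.0091) and for miR-200a-3p (F = 7.31, adjusted p = 0.017), 2 of 5 members against 25.1% of all miRNAs. For miR-429 the term at 1500 ppm was 0.47 ± 0.09, since the mean rose from 8.91 to 9.27 in males and was 9.135 and 9.03 in control females and females at 1500 ppm. For miR-200a-3p the terms at 600 and 1000 ppm were the larger ones, at -0.287 ± 0.079 and -0.202 ± 0.079, and neither passed by itself (adjusted p = 0.337 and 0.181). The control males were at 10.07, 10.15 and 10.18 in this miRNA, the males at 600 ppm at 10.04, 10.09 and 10.11, those at 1000 ppm at 10.08, 10.12 and 10.16 and those at 1500 ppm at 10.10, 10.13 and 10.21. The males overlapped at all doses, and the females at 600 ppm lay above all of them.

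With slide in the fit 0 of 5 members passed the interaction (adjusted p = 0.765 for both miR-429 and miR-200a-3p), as did 0% of all miRNAs, and these 2 members were under 0.05 before adjustment, against 4.24% of all miRNAs. Neither passed with slide as a random block or with normexp correction. Male minus female over all doses was -0.129 ± 0.058 for miR-429 and passed for 0 of 5 members, against 43.8% of all miRNAs, and 2 of 5 (miR-200c-3p and miR-429) were under 0.05 before adjustment in limma, against 51.6%. Its sign in miR-429 turned to 0.142 with slide in the fit and to 0.063 among the 4 males and 4 females of slide 2. On slide 2 all 4 males were exposed and 3 of the 4 females were controls, so sex and dose cannot be told apart there.

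The slides themselves differed in miR-429, which rose by 0.31 ± 0.05 from slide 1 to slide 2 and by 0.23 ± 0.05 from slide 1 to slide 3 with dose in the fit (F = 22.4, limma adjusted p = 3.4e-05). In this F test over the 3 slides it was the only member to pass, against 59.7% of all miRNAs, and against 48.1% with sex added to the fit. Between slides 1 and 2 alone miR-141-3p passed too, by 0.10 ± 0.04 (adjusted p = 0.034). These 2 members passed in a contrast that called 154 of the 283 miRNAs tested. A look at the 2 probes of each member separately showed larger shifts. The brighter probe of miR-141-3p had a mean of 10.56 on slide 1 and 11.01 on slide 2, while the dimmer one went from 9.80 to 9.50. In miR-200b-3p the brighter probe went from 10.18 to 10.53 and the dimmer one from 9.39 to 9.11. The probes of one miRNA therefore moved in opposite directions between the slides, and their mean hid it.

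In miR-200a-3p the shifts from slide 1 to slide 2 were 0.120 and -0.148 for the brighter and the dimmer probe. In miR-429 they were 0.385 and 0.172, both up, and in miR-200c-3p -0.026 and -0.001. Across the 24 arrays the 2 probes of a member correlated with r = -0.592 in miR-141-3p, -0.424 in miR-200b-3p, 0.355 in miR-200a-3p, 0.877 in miR-429 and 0.908 in miR-200c-3p. After each slide's mean was taken off, r was 0.916, 0.912, 0.928, 0.965 and 0.942 in the same order. On slides 2 and 3 the r of each member was 0.893 or above. On slide 1 it was lower, at 0.534 in miR-200a-3p, 0.753 in miR-141-3p and 0.833 to 0.908 in the other members. The negative correlations of miR-141-3p and miR-200b-3p over all arrays were thus not seen within any slide.

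Opposite shifts of the 2 probes from slide 1 to slide 2 were seen in 83 of the 215 miRNAs with 2 probes kept. A negative r over all arrays was rarer, in 30 of these 215 (14%) against 2 of 5 members, with a median r of 0.804. Of the 215 miRNAs with 2 probes kept, the brighter probe shifted further up (or less far down) than the dimmer one from slide 1 to slide 2 in 178 (82.8%), with median shifts of 0.204 and -0.0394, and in 4 of the 5 members. The 2 probes also differed at 1500 ppm in males, where the difference from control was 0.527 and -0.213 in the brighter and the dimmer probe of miR-141-3p, 0.433 and -0.183 in miR-200b-3p, 0.145 and -0.117 in miR-200a-3p and 0.465 and 0.256 in miR-429, while in miR-200c-3p the dimmer probe was the higher one, at 0.071 and 0.104. At 600 ppm, by contrast, the difference from control was above 0 in each of the 10 probes (0.070 to 0.171), in females too (0.096 to 0.269), and at 1000 ppm in each of the 10 (0.042 to 0.104), while at 1500 ppm it was so in 7.

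**Figure D3:**
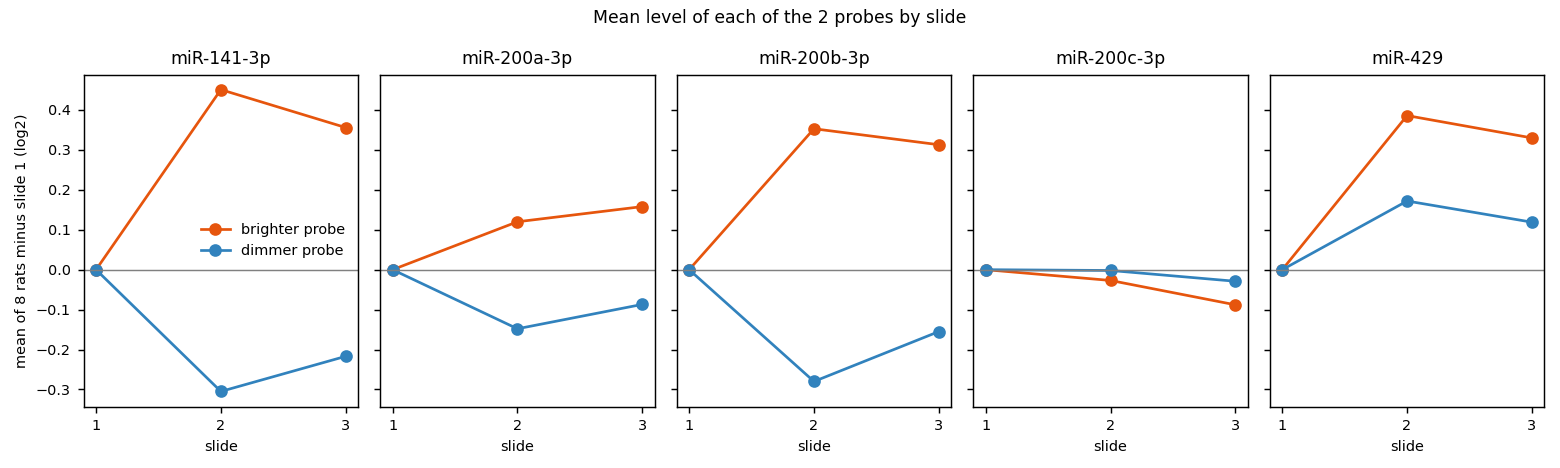
Mean over the 8 rats of a slide for the brighter and the dimmer probe of each member, less the mean on slide 1 (vertical axis, log2), against the slide. In miR-141-3p, miR-200a-3p and miR-200b-3p the probes part in opposite directions, both probes of miR-429 rise and those of miR-200c-3p stay near 0.

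The members were then set against each other across the 8 rats of each slide, in 30 relations of 10 pairs on 3 slides. Pearson's r was above 0 in 28 of 30, with a median of 0.826, and 19 had an exact permutation p under 0.05 (two-sided), the same number as after Benjamini-Hochberg adjustment over the 30. The rats of a slide were of several doses and, on slide 2, of both sexes, and differences between these groups were left in r. For Spearman's rho it was 18 after adjustment, with a median of 0.81. On slide 2 all 10 pairs passed, with r from 0.768 (miR-141-3p and miR-429) to 0.946 (miR-200b-3p and miR-200c-3p). On slide 3 there were 8 of 10, with a median r of 0.837. On slide 1, the males of control and the lower doses, 1 of 10 passed (miR-200b-3p and miR-429, r = 0.859, rho = 0.857, exact permutation p = 0.0047 for r), with a median r of 0.406.

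For comparison, the median r over all 22155 pairs of the 211 miRNAs above background on every array was 0.141, 0.077 and 0.199 on slides 1, 2 and 3. On slides 2 and 3, 0.767% and 2.55% of all pairs exceeded the family's median r, and on slide 1, 28.4% did. Pairs within a cluster had a median r of 0.861 and pairs across the clusters of 0.771, and this difference was not tested. After the 2 rats farthest from the median of the first member were left out of each relation, 26 of 30 were above 0, with a median r of 0.782, and 9 passed, of which 8 were among the 19 and 1 was not. The n of a relation then fell from 8 to 6, and r itself moved from 0.862 to 0.872 in one of the 11 lost calls (miR-141-3p and miR-200c-3p on slide 2) and from 0.774 to 0.528 in another (miR-200c-3p and miR-429 on slide 3). On slides 2 and 3 the rats that were high on one member were high on the others also where the members lie on different chromosomes. From the seed onward, members on different chromosomes can be much alike in sequence, as the hairpins of miR-200b-3p and miR-200c-3p show. Whether a probe also bound a similar member was not tested.

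**Figure D4:**
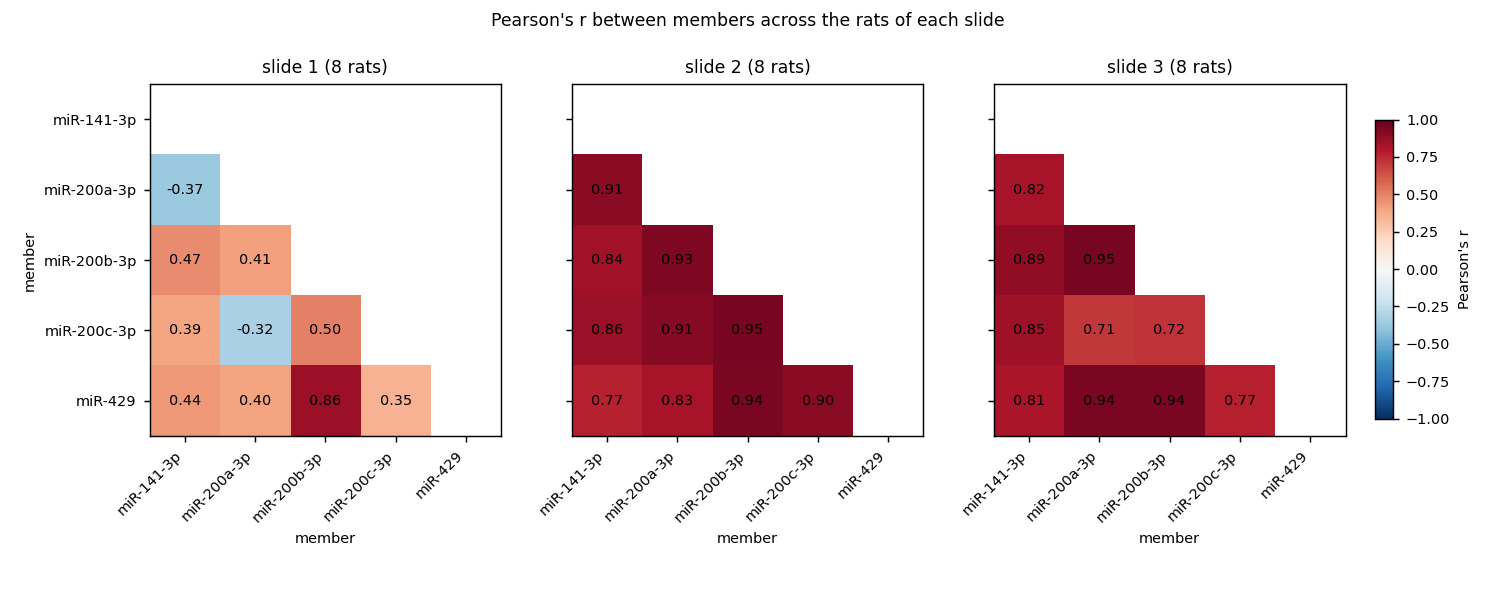
Pearson's r (number and colour) between the levels of each pair of members across the 8 rats of slides 1, 2 and 3. All 20 values on slides 2 and 3 lie at 0.71 or above, and on slide 1 they range from -0.37 to 0.86.

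The 5 miRNAs most like the family were found by Pearson's r between the slide-centred levels of a miRNA and the mean of the members over 24 rats, among the 211 miRNAs above background on all arrays. The members themselves, which make up that mean, had r of 0.861 to 0.959. The next were rno-miR-375-3p (0.656), known from secretory and neuroendocrine epithelial cells, rno-miR-30c-5p (0.634), rno-miR-30a-5p (0.618), rno-miR-29c-5p (0.603) and rno-miR-30b-5p (0.593). Their r varied between the slides, from -0.056 on slide 1 to 0.778 on slide 2 for miR-375-3p, as did that of some members, from 0.33 on slide 1 to 0.959 on slide 3 for miR-200a-3p. The points share arrays and scaling, and no test was made. At the other end stood rno-miR-494-3p (-0.528) and rno-miR-142-3p (-0.506), the latter a miRNA of blood-forming cells.

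The 5p arms, the partner strands cut from the same hairpins, were mostly not above background. Of the 4 on the array, rno-miR-141-5p was above background on 2 arrays and rno-miR-200a-5p and rno-miR-200c-5p on none, and rno-miR-429-5p was not on the array. Only rno-miR-200b-5p was tested, through 3 of its 4 probes, which were above background on 11, 16 and 24 arrays. Its scaled intensity, 12.97 to 17.88 over all rats, lay close to the floor of 11.31 set in processing. Its slide-centred r with the mean of the 3p members was 0.583. It differed from control by 0.02 to 0.09 at the 3 doses with an SE of 0.08 (adjusted p from 0.674 to 0.996). In males at 1500 ppm it rose by 0.24 ± 0.09 (limma adjusted p = 0.040), where 36.0% of all miRNAs passed. It was lower in males than in females by 0.15 ± 0.05 (limma adjusted p = 0.027), where 43.8% passed. With slide in the fit these differences were 0.07 ± 0.15 and -0.04 ± 0.10, and neither passed.

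The list of 10 other epithelial miRNAs (miR-205, miR-203a-3p, miR-375-3p, miR-96-5p, miR-182, miR-183-5p, miR-31a-5p, miR-34b-5p, miR-34c-5p and miR-449a-5p) gave 0 of 10 calls at each dose, with 9, 6 and 8 of 10 above 0 at 600, 1000 and 1500 ppm and medians of 0.188, 0.129 and 0.246. Of all miRNAs tested, 63.25%, 43.82% and 50.88% were above 0 at these doses. In males at 1500 ppm 1 of 10 passed, against 36.0% of all miRNAs. This was miR-183-5p, which rose by 1.06 ± 0.18 (adjusted p = 4.9e-04), while its difference with slide in the fit was 0.12 ± 0.21 and did not pass. The interaction also called miR-183-5p alone of the 10 (against 25.1% of all miRNAs), and did not call it with slide in the fit (adjusted p = 0.765). Between the sexes 4 of 10 passed, against 43.8% of all miRNAs. The ciliated-cell miRNAs miR-34b-5p and miR-34c-5p were lower in males by 0.31 ± 0.12 and 0.39 ± 0.12, miR-205, a miRNA of basal cells, was lower by 0.21 ± 0.08, and miR-182 was higher by 0.29 ± 0.07. With slide in the fit none of these 4 passed, where 3.53% of all miRNAs did, and male minus female was above 0 in all 4 (0.15 for miR-34b-5p, 0.07 for miR-34c-5p, 0.11 for miR-205 and 0.17 for miR-182). The summed level of the list was 1840 to 3077 over the 8 rats of slide 1, 2139 to 3394 on slide 2 and 2746 to 4313 on slide 3, and its part in the sex difference was not tested.

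Among the lists of other cell types, 0 miRNAs passed at any dose with the sexes together. In males at 1500 ppm, where miR-429 rose, 3 of 4 endothelial miRNAs fell (miR-126a-5p, miR-221-3p and miR-222-3p), as did 1 of 4 leukocyte (miR-142-5p), 1 of 3 erythroid (miR-144-3p) and 1 of 4 striated muscle miRNAs (miR-499-5p). Of 5 smooth muscle and fibroblast miRNAs, miR-214-3p rose and miR-145-5p fell. The share over all miRNAs in this contrast was 36.0%, and with slide in the fit 0% passed, so that each of these calls was lost. In males that fit links slides 1 and 2 through male 13 alone. A lost call there does not show that dose had no effect. The differences in that fit were -0.03 ± 0.13 for miR-126a-5p, 0.00 ± 0.15 for miR-221-3p, -0.19 ± 0.12 for miR-222-3p, -0.25 ± 0.24 for miR-142-5p and -0.42 ± 0.45 for miR-144-3p. For miR-499-5p it was -0.22 ± 0.36, for miR-214-3p -0.07 ± 0.25 and for miR-145-5p 0.05 ± 0.12. The summed endothelial level was 16190 to 17030 in control males on slide 1 and 14720 to 15760 in males at 1500 ppm on slide 2, beside 12780 to 15150 in the control females of slide 2. The part of these cell types in the rise of miR-429 was not tested.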

How the data were processed

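Total lung RNA (100 ng per rat) was labelled with Cy3 and hybridised to Agilent rat miRNA arrays, per the labels. The deposited scanner output of each array came from Feature Extraction 11.5.1.1, and its processed intensity had been corrected for local background and spatial gradient but not scaled between arrays. In the series table, the authors give the unscaled total gene signal (intensity) of each miRNA, with values below detection set to 1.

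Here, outlier and control spots were left out. Each array was scaled by its 75th percentile over the 394 probes above background on all 24 arrays, values under a floor of 11.31 were set to the floor, and log2 was taken. Probes above background on at least 6 arrays were kept (555 probes, 283 miRNAs) and averaged per miRNA. limma 3.58.1 (R 4.3.3) compared groups, two-sided, with Benjamini-Hochberg adjustment over 283 miRNAs and a threshold of 0.05. The fits used 1 mean per dose, dose by sex means, a slope, or dose with sex or slide. The number of arrays limits the precision. The fits were tested on simulated data without slide differences, so that test cannot show how the slides affect them. Comparisons within slide 3, of males at 1500 ppm with control females on slide 2, of single probes and relative to the median of all miRNAs were added after seeing the data. Sequences came from RefSeq (GRCr8), while the headers name rn4. Mature entries for rno-miR-200a-3p, rno-miR-200b-3p and rno-miR-429 were not used here. All 5 members, the lists and the 5 most-alike miRNAs (highest r) follow rules written with earlier results of these data known. Alternatives covered scaling, filters, floor, probe summary, series table, normexp, slide, eBayes options, sex and each array left out. Figures used matplotlib.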

Additional observations from a re-analysis of the deposited data

Results flagged for a closer look

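For 2 of the 5 members the interaction of dose and sex passed, against 25.1% of all miRNAs tested. In rno-miR-429 the interaction had F = 14.9 (limma adjusted p = 0.0091), with the 3 males at 1500 ppm above the control males and the females at 1500 ppm below the control females on average. In rno-miR-200a-3p it had F = 7.31 (adjusted p = 0.017), with differences from control of 0.24 and 0.19 at 600 and 1000 ppm in females and of -0.052 and -0.012 in males. Across 12 other settings the adjusted p ranged from 0.0027 to 0.765 for miR-429, under the threshold in 8, and from 0.0054 to 0.765 for miR-200a-3p, under it in 7. On leaving out each rat in turn both stayed under it in all 24 fits. At every dose the males and the females were on different slides, so sex and slide cannot be told apart in the interaction. With slide as a block, a fit that rests on male 13 and female 26, neither interaction passed (adjusted p = 0.765 for each). The part of the slide was not tested further. No rat stood apart from its dose group in any of the 20 groups of 6 examined, by the gap to its nearest neighbour, a measure that flags about 1 such group in 20 by chance. Each group of 6 joined both sexes on different slides, so the measure says nothing of the groups of 3 that the interaction compares.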

How the results depend on the processing

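No member passed for any dose against control, or for the trend, under the alternatives run. At 1500 ppm the sign turned with quantile normalization (miR-200a-3p -0.024, miR-200b-3p -0.0016), with the total gene signal (miR-200a-3p -0.053, miR-200c-3p -0.021), in the series table (miR-141-3p -0.142, miR-200a-3p -0.247, miR-200b-3p -0.164, miR-200c-3p -0.215, miR-429 -0.130), and for miR-200a-3p with slide as a block (-0.018), as a random block (-0.015) and without control female 22 or 23 or 1500 ppm male 17 or 18 (from -0.0249 to -0.0061, in a range of -0.0249 to 0.0292 over all rats left out in turn). The series table also turned miR-429 in males at 1500 ppm (-0.328), its interaction term there (-0.397) and male minus female (0.062). Male minus female turned with slide as a block (0.142), as a random block (0.0040) and within slide 2 (0.063), where the sexes also differed in dose. In the series table the median of all miRNAs in males at 1500 ppm was -0.656, and miR-429 lay 0.328 above it. The cause of the other turns was not tested.

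The share of all miRNAs that passed moved with the setting too and is given in brackets. With the percentile over all probes, 4 members passed the interaction (32.5%), 3 its 1500 ppm term (44.9%), 4 in males at 1500 ppm (50.5%), 3 for any dose in males (38.5%) and 2 for slide (59.7%). Quantile normalization gave 1 for sex (38.5%), 1 for the interaction (23.3%), 2 for slide (60.8%) and 9 pairs. The brightest probe gave 4 for sex (51.9%), 4 for the interaction (36.0%), 3 for its 1500 ppm term (46.6%), 3 in males at 1500 ppm (48.4%), 3 for any dose in males (45.9%) and 4 for slide (66.1%). The total gene signal gave 1 for sex (37.8%), 1 for the interaction (10.6%), 0 for its 1500 ppm term (23.7%) and 0 for any dose in males (21.6%). The series table gave 1 for the interaction (25.4%), 3 for its 1500 ppm term (53.7%), 4 in males at 1500 ppm (69.6%), 3 for slide (67.5%) and all 30 pairs. Normexp, slide as a block and slide as a random block each gave 0 for the interaction, its 1500 ppm term, males at 1500 ppm and any dose in males (0% to 2.47%), and normexp 7 pairs. In males at 1500 ppm, probes above background on all arrays gave 2 (47.4%) and eBayes with trend and robust options 2 (38.5%). Without a filter, 1 member passed for any dose in females (0.139%). Without the 2 rats farthest from the median, 9 pairs passed. Leaving out 1 rat gave 0 to 1 member for sex (1 without 1500 ppm male 17 or 18 or female 37 or 38), 1 to 2 in males at 1500 ppm (2 without 1000 ppm male 13, female 31 or 32, or 1500 ppm male 16 or female 36), 0 to 1 for any dose in females (1 without 1500 ppm female 37), 1 to 2 for slide (2 without control female 23) and 2 to 3 for the interaction. No paired analysis was possible because the groups share no replicate numbers.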
